A study of Mus musculus with 5 samples.

Results

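Greb1l, Prtg, Fam171b, Crygd and Slc13a5 are 5 autosomal genes whose array values lay far from those of parental embryonic stem cells (ESCs) in each of the 4 arrays of ESC-like cells, the first 3 above and the last 2 below. They were selected on that very difference, with results of these arrays known, out of 19163 autosomal genes with a probe set of their own, so their differences from parental ESCs are described here and not tested. Each gene is represented by its brightest probe set with exactly 1 gene symbol, the probe set being the group of short probes that reads a gene on the microarray. The genes lie on chromosomes 18 (Greb1l), 9 (Prtg), 2 (Fam171b), 1 (Crygd) and 11 (Slc13a5) in the GRCm38.p6 annotation.

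The 5 arrays came from 5 cell populations. Parental ESCs had not been injected; their label gives no strain, and the methods describe B6CBAF1 ESCs as the ESCs of the study. Homologous ESC-like cells were cultured out of a teratoma that B6CBAF1 ESCs formed under the skin of B6CBAF1 recipients, and heterologous ESC-like cells came from a single teratoma in a B6D2F1 recipient. For the co-injection arrays (n = 2, named batch 1 and batch 2), B6D2F1 fetal fibroblasts, which match the recipient, were mixed with the ESCs before injection into B6D2F1 mice. All populations, parental ESCs included, were cultured on inactivated fetal fibroblasts of the ICR strain, and more leukemia inhibitory factor is stated in the methods for the teratoma-derived cultures than for ESCs. The labels do not say whether the co-injection arrays came from separate animals.

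These genes have little in common in what they are known to do. Protogenin (Prtg) is a cell surface protein of the immunoglobulin superfamily, related to the netrin receptors DCC and neogenin, and is made in the early embryo. Greb1l is related to the estrogen-responsive gene Greb1 and is needed for kidney formation in the mouse, while Fam171b encodes a membrane protein of little known function. Crygd encodes a gamma-crystallin, a structural protein of lens fibre cells, and Slc13a5 encodes a sodium-coupled citrate transporter of the plasma membrane, best known from liver and brain.

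Ahead of the results, the parental array stood apart from the other 4 at sex-linked genes, on which the labels give nothing. Parental ESCs had low values of the Y-linked genes Uty (5.30) and Eif2s3y (5.34), whereas the ESC-like arrays ranged from 7.78 to 8.75 for Uty and from 7.82 to 8.54 for Eif2s3y (log2 array values). The third measured Y-linked gene, Kdm5d, differed by 0.05 to 0.44. Over 359 X-linked genes above the median brightness, the median difference from parental ESCs was between −0.44 and −0.49 in the ESC-like arrays, against −0.03 to 0.01 over 11229 autosomal genes. All 4 differences of a gene share this 1 parental array, which has no replicate, so a value peculiar to that array would shift all 4 alike. The study reports that its ESC-like lines matched parental ESCs genetically in an analysis of short tandem repeats. That analysis used 3 loci, none of them named for a sex chromosome, so it does not bear on the sex-linked difference. Whether it could tell apart separate ESC lines of the same cross was not reported. Whether the parental RNA on this array came from the same line and passage as the injected ESCs is not given in the labels. A difference from parental ESCs that arose through injection and teratoma growth thus cannot be told apart from one already present between ESC cultures. The part of the sex-linked difference in the autosomal results was not tested. Cell identity was followed by markers as well. The 10 ESC markers had mean array values between 11.42 and 11.89 in the 5 arrays, with 0 of 10 more than 2-fold from parental ESCs in homologous and co-injection cells, while Zfp42 (−1.63) and Esrrb (−1.18) were past 2-fold, downward, in heterologous cells. The 19 measured fibroblast markers had a mean of 7.56 in parental ESCs, 8.05 in the homologous array, 9.40 in the heterologous array and 7.29 and 7.26 in the co-injection arrays. Of the 7 measured neural markers, 2 were past 2-fold upward in homologous cells, 3 in heterologous cells and 1 in the co-injection mean, with median differences of 0.27, 0.63 and 0.27. The neural progenitor genes Fabp7 (2.33 homologous, 4.65 heterologous, 0.93 batch 1 and 1.07 batch 2) and Nes (1.28, 2.52, 1.11 and 0.90) had the highest differences from parental ESCs of that list. For both, the difference was highest in heterologous cells. Tubb3 (0.02, −0.44, −0.05 and −0.0011) and Neurog2 (−0.11, −0.22, 0.09 and 0.03) had lower differences, each lowest in heterologous cells. Xist, the RNA that coats an inactive X chromosome, was 8.41 in the heterologous array and between 6.29 and 6.80 in the other arrays. In these cultures, a change in the number of cells of a type and a change of RNA per cell cannot be told apart.

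Stretches of sequence before the gene start are shown, for 1 gene of the lower pair and 1 of the higher set, because their content of CG dinucleotides, the usual site of DNA methylation in mammals, is very unlike. Both run 250 bases up to the RefSeq start in GRCm38.p6, with CG in capitals.
Crygd, chr1:65063441-65063690, minus strand: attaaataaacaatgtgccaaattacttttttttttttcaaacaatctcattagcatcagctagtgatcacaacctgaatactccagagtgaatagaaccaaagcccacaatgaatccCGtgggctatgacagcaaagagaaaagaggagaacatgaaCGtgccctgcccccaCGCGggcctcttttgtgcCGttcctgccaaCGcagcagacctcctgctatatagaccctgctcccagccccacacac
Prtg, chr9:72807024-72807273, plus strand: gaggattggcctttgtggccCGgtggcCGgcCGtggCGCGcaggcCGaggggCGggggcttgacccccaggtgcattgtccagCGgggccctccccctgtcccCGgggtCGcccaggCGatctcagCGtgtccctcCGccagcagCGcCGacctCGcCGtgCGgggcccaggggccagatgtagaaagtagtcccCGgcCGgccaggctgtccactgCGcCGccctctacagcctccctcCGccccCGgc
The Crygd stretch holds 6 CG, which is also the median over 32851 promoters of that table (50.4% hold at least as many), and the Prtg stretch holds 24 (12.0% hold at least as many). At least 1 CG, which reads the same on both strands, occurs in 92.1% of these promoters. Slc13a5 has 2 listed starts, with 13 and 22 CG before them. Promoter entries matched 3 of the 5 genes. No methylation was measured in these samples, and the CG counts describe sequence only.

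Greb1l, the gene needed for kidney formation, was low in parental ESCs, with an array value of 6.43 (log2 scale, as are all values below). It was 8.81 in the homologous array, 9.34 in the heterologous array and 8.77 in both co-injection arrays. The 4 ESC-like values thus lay together, well above the parental value. The differences from parental ESCs were 2.38, 2.90 and 2.34 (homologous, heterologous and co-injection mean), that is 5.06-fold to 7.48-fold over the 4 arrays. The parental value was below the median of all values, 7.49, and no detection call was used, so it is not shown to lie above background and the folds are ratios of array values only. The co-injection values were identical to the last digit deposited, as for 1176 of the 19938 named genes (5.90%), so the gap of 0 is not a measure of replicate error. Greb1l has a second probe set, which was 6.71 in parental ESCs, 8.49 in the homologous, 9.04 in the heterologous and 8.51 and 8.42 in the co-injection arrays. Its differences, from 1.71 to 2.32, had the same direction, with heterologous cells again the highest, and were smaller than those of the brighter probe set.

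Prtg was higher in all ESC-like arrays too. Its array value was 8.30 in parental ESCs, 10.27 in the homologous array, 11.02 in the heterologous array and 10.30 and 10.27 in the co-injection arrays. The heterologous array was the highest, and the other 3 were within 0.03 of one another, homologous cells and batch 2 having an equal value. The corresponding differences were 1.97, 2.72 and 1.98 ± 0.020 (SD, n = 2 for co-injection), or 3.92-fold to 6.60-fold.

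Fam171b had 8.54 in parental ESCs, 11.00 in the homologous array, 11.01 in the heterologous array and 10.73 and 10.50 in the co-injection arrays. Here the homologous and heterologous values differed by only 0.0094, and the co-injection arrays were lowest among ESC-like cells. The differences from parental ESCs were 2.46, 2.47 and 2.08 ± 0.16 (SD, n = 2), or 3.89-fold to 5.53-fold. Of the 5 genes, Fam171b had the widest gap between the co-injection arrays, 0.23, against a median of 0.0671 over all named genes.

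**Figure D1:**
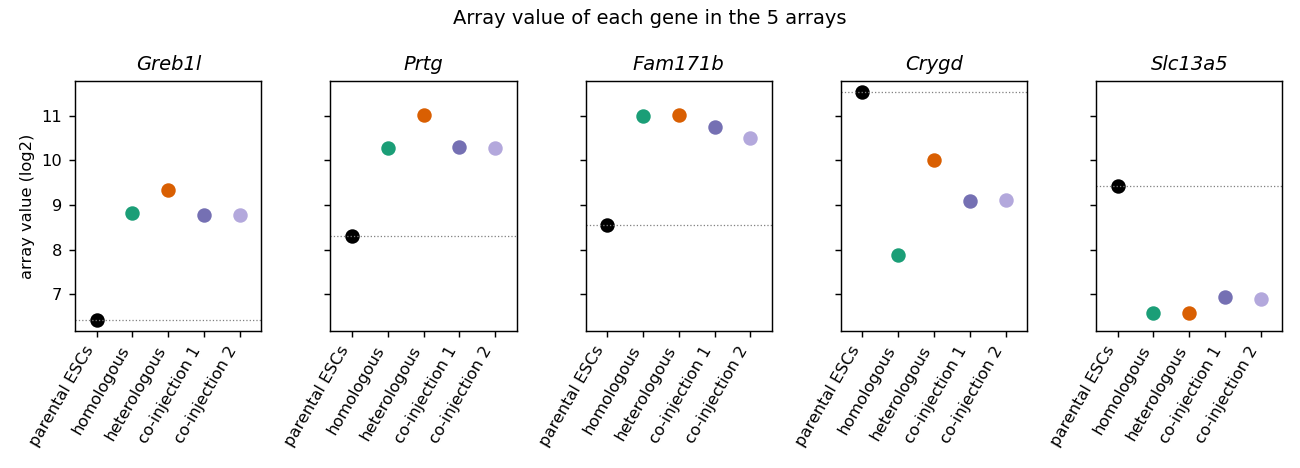
Array value (log2, vertical axis) of the 5 genes in each of the 5 arrays (horizontal axis), 1 point per array; the dotted line marks the parental value. Greb1l, Prtg and Fam171b lie above the parental line in all 4 ESC-like arrays, and Crygd and Slc13a5 below it, with Crygd spread from 7.88 to 10.01 among ESC-like arrays.

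Crygd, the lens crystallin gene, was bright in parental ESCs at 11.52. It was 7.88 in the homologous array, 10.01 in the heterologous array and 9.10 and 9.11 in the co-injection arrays. Each ESC-like array was lower than parental ESCs, but they were far from each other, over a range of 2.12. The difference from parental ESCs was −3.63 (12.4-fold) in homologous cells, −1.51 (2.85-fold) in heterologous cells and −2.41 ± 0.011 (SD, n = 2; 5.32-fold) after co-injection. The step from parental ESCs to the nearest ESC-like array was 0.711 of the range among ESC-like arrays. For the other 4 genes that step was 2.62 to 7.02 times the range.

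Slc13a5, the citrate transporter gene, had 9.42 in parental ESCs. It was 6.58 in both the homologous and the heterologous arrays and 6.94 and 6.90 in the co-injection arrays. The ESC-like arrays were all low and spanned no more than 0.35, the narrowest range of the 5 genes. The difference from parental ESCs was −2.84 for each array of ESCs injected alone and −2.48 and −2.52 for the co-injection arrays (SD 0.027, n = 2), between 5.59-fold and 7.14-fold. Its mean over the arrays, 7.29, was under the median of all values, 7.49, whereas the other 4 genes had means above it. Its values in the 4 ESC-like arrays were all below that median and are not shown to lie above background, so here too the folds are ratios of array values.

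Among all autosomal genes, 62 (0.324%) were more than 2-fold higher than parental ESCs in each of the 4 ESC-like arrays and 134 (0.699%) were more than 2-fold lower in each; all 5 genes are in these sets because they were chosen for this. Ordered by the smallest of the 4 differences, Greb1l, Prtg and Fam171b held places 2, 3 and 4 among the higher genes and Slc13a5 held place 2 among the lower ones. Crygd, whose smallest difference was that of the heterologous array, held place 41. The first of the higher genes was Sema6a, a semaphorin, at 2.98, and the first of the lower ones was Olfr153, an olfactory receptor gene, at −3.03. After Fam171b came Csn3, the kappa-casein gene, at 1.78, Sema3e (1.64), Neurod1 (1.63), a transcription factor gene of neurons and endocrine cells, Zfp608 (1.57), Mal2 (1.57) and the translation factor gene Eif4g3 (1.56). After Slc13a5 came Pramel7 (−2.36), Ube2l6 (−2.25), which encodes a conjugating enzyme for the ubiquitin-like protein ISG15, Cyp2s1 (−2.21), Pramel6 (−2.13), the meiotic cohesin gene Smc1b (−2.08), the synaptonemal complex gene Sycp1 (−2.08), 4930591A17Rik (−2.07) and Adap1 (−2.04). The parental values of Csn3, Sema3e, Neurod1, Zfp608 and Mal2 were below the median of all values. So were the ESC-like values of Olfr153, Pramel7, Pramel6, Smc1b, Sycp1 and 4930591A17Rik. None of these values is shown to lie above background. At the edge of 2-fold, Utrn (1.00202) was just inside and Trh (0.99946) just outside on the higher side, with Robo4 (−1.00324) and Itpka (−0.996132) on the lower side.

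The genes most like each of the 5 were found by the root mean square gap between their 4 differences from parental ESCs. For Prtg and Fam171b, the closest genes were each other (0.29), then Greb1l (0.34 and 0.30), then Csn3 (0.38 and 0.36). The closest to Greb1l was not autosomal but the Y-linked Eif2s3y (0.21), with differences of 2.54 (homologous), 3.20 (heterologous), 2.52 (batch 1) and 2.48 (batch 2), followed by Fam171b and Prtg. Slc13a5 was closest to Pramel7 (0.26), 4930591A17Rik (0.28) and the X-linked Gm9 (0.29). Crygd had no near match. Elobl (0.53), the X-linked transketolase-like gene Tktl1 (0.63) and Sycp1 (0.64) came first. Each of them, like Crygd, was lowest in homologous cells, at −3.07, −2.59 and −2.58 from parental ESCs, though Tktl1 was at −2.56 in batch 2. That shared order follows in part from how these genes were found. The likeness rests on 4 arrays that share 1 parental array and is a description. It uses the same differences by which the 5 genes were chosen, so closeness of Greb1l, Prtg and Fam171b to each other follows in part from that choice.

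The parental array does not enter the comparison of ESC-like arrays with each other. Homologous and heterologous cells have 1 array each. Recipient strain and co-injected fibroblasts thus cannot be told apart from differences between individual lines. Greb1l and Prtg were higher in the heterologous array than in any other ESC-like array, by 0.53 and 0.75 over the homologous array and by 0.56 and 0.74 over the co-injection mean. The homologous array was within 0.036 and 0.014 of the co-injection mean for these genes, gaps below the 0.09 SD of the co-injection pair pooled over all named genes. That SD comes from the co-injection pair alone and does not measure the spread between separately derived lines. The heterologous array was also the one with high fibroblast markers: 15 of 19 exceeded parental ESCs by over 2-fold there (median difference 1.71), against 2 of 19 in the homologous array (0.39) and 1 higher and 3 lower in the co-injection mean (−0.13). The neural markers Fabp7 and Nes were highest there as well, by 2.32 and 1.24 over the homologous array. Tubb3 and Neurog2, of the same list, were instead lowest there, at −0.46 and −0.10 from the homologous array. The part of either marker list in the higher Greb1l and Prtg values was not tested.

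Crygd differed most among the ESC-like arrays. The heterologous array was 2.12 above the homologous array and 0.90 above the co-injection mean, and the homologous array stood at −1.22 from the co-injection mean, while the co-injection arrays were 0.015 apart. From high to low, Crygd ran from parental ESCs through heterologous and co-injection to homologous cells, in steps of 1.51, 0.89, 0.015 (between the co-injection arrays) and 1.21. Fam171b was 0.39 and 0.38 higher in the heterologous and homologous arrays than in the co-injection mean, against 0.23 within the pair, and batch 1 alone was 0.26 from the homologous array. Slc13a5 had a difference of −0.33 from the co-injection mean in both the heterologous and the homologous array, and its co-injection arrays were 0.039 apart. A difference over 2-fold was seen for 1 of the 5 genes, Crygd, between the heterologous and homologous arrays (3.06% of all named genes) and between the homologous array and the co-injection mean (0.426%), and for 0 of 5 between the heterologous array and the co-injection mean (3.35%). Since only the co-injection condition had more than 1 array, these differences have no replicate check of their own.

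**Figure D2:**
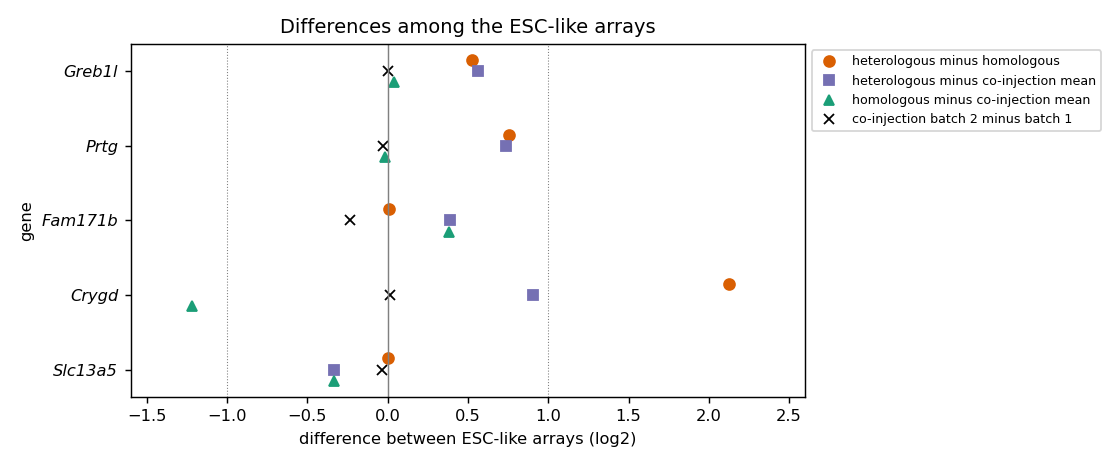
Difference between ESC-like arrays (log2, horizontal axis) for the 5 genes (vertical axis), with symbols for the 3 contrasts, a cross for the gap within the co-injection pair and dotted lines at 2-fold. The contrasts are offset vertically to keep them apart; Crygd reaches 2.12 for heterologous minus homologous, while its co-injection pair lies at 0.015.

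Relatives of the 5 genes were followed next, with 2-fold counts to be read against all 19938 named genes. Of these, 1.45% were higher and 1.6% lower in the homologous array, 3.98% higher and 1.95% lower in the heterologous array, and 0.647% higher and 1.44% lower in the co-injection mean, with median differences of −0.010, −0.040 and 0.038. Greb1, the relative of Greb1l, had differences of 0.69, 0.70 and 0.44 in the same order, all under 2-fold. In the family of Prtg, Igdcc4 had 0.84, 1.36 and 0.77, and the heterologous value was the 1 past 2-fold among the 4 other members. Igdcc3 had 0.91 in the heterologous array and between −0.14 and 0.07 in the rest, and the netrin receptor gene Dcc and the neogenin gene Neo1 stayed between −0.29 and 0.09. Fam171a1 had 0.17, 0.49 and 0.15, and Fam171a2 had 0.34, 0.34 and 0.36. Fibroblast markers were high in the heterologous array. The part of fibroblasts in its values for these relatives, and for Cryab, Unc5b and Itgav below, was not tested.

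Of the 14 other crystallin genes measured, Crygc, which lies next to Crygd, was more than 2-fold lower in homologous cells (−1.06), with −0.63 in heterologous cells and −0.64 after co-injection. Cryga had −0.34, −0.23 and −0.20, and Crygb, Crygf, Crygn and Crygs lay between −0.18 and 0.02 in every array. Gamma-crystallin genes are close copies of one another, and how far their probes share signal was not tested. The small heat shock protein gene Cryab (alpha-B-crystallin), which is also made outside the lens, was the 1 crystallin over 2-fold higher, by 2.40 in the heterologous array, with 0.55 in homologous cells and 0.85 after co-injection. The other alpha- and beta-crystallin genes (Cryaa, Cryba1, Cryba2, Cryba4, Crybb1, Crybb2 and Crybb3) did not leave the range from −0.19 to 0.25. Without Crygd, the crystallin median was −0.06, −0.11 and 0.04. Of 13 lens development genes, Pax6 was the 1 past 2-fold, with 0.73, 1.53 and 0.49, and Sox1 came next at 0.27, 0.63 and 0.27. Pax6 and Sox1 are on the neural list too, where Fabp7 and Nes were also highest, and Tubb3 and Neurog2 lowest, in heterologous cells. The part of neural cells in the Pax6 and Sox1 values was not tested. At the lower end, Bfsp1, a lens filament gene, and Lim2, a lens membrane protein gene, had means over the 4 arrays of −0.06 and −0.05.

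The other SLC13 transporter genes had values near those of parental ESCs. Slc13a1, Slc13a2, Slc13a3 and Slc13a4 lay between −0.18 and 0.16 of parental ESCs in every array, against −2.48 to −2.84 for Slc13a5. Of 11 genes that handle citrate or acetyl-CoA inside the cell, the mitochondrial isocitrate dehydrogenase gene Idh2 was more than 2-fold lower in the heterologous array (−1.15), with −0.48 in homologous cells and −0.56 after co-injection. The malic enzyme gene Me1 had −0.30, −0.02 and −0.56. The highest were Acaca, the acetyl-CoA carboxylase of fatty acid synthesis, at 0.45, 0.12 and 0.41, and the acetyl-CoA synthetase gene Acss2 at 0.47, 0.19 and 0.30. The list medians were 0.0058, −0.02 and −0.03.

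**Figure D3:**
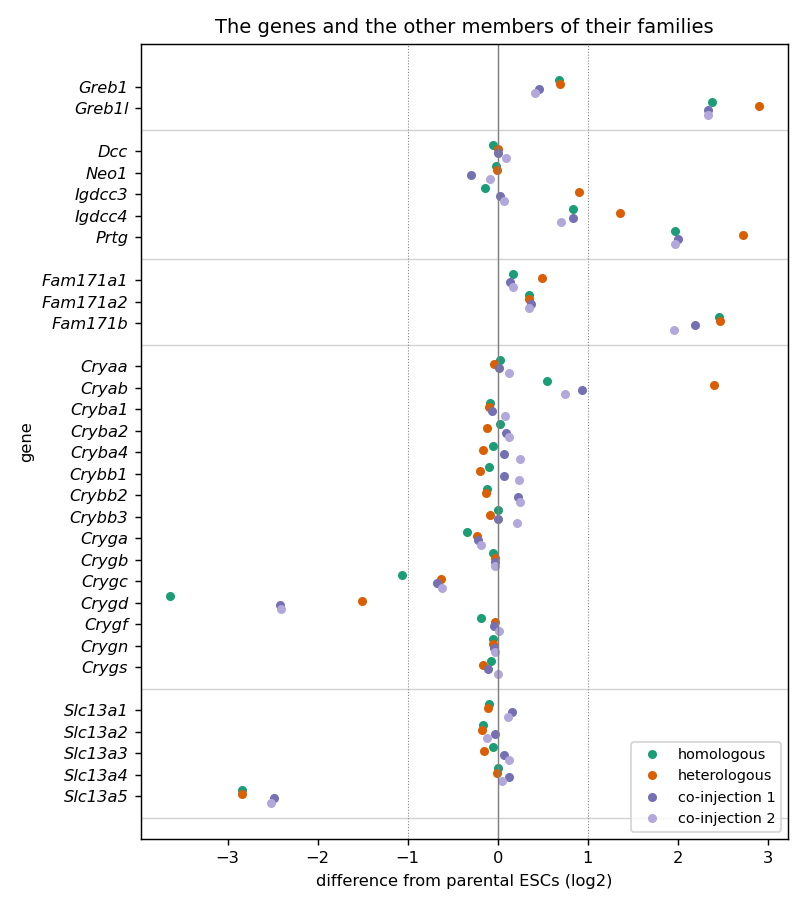
Difference from parental ESCs (log2, horizontal axis) of the 5 genes and of every measured member of their families (vertical axis), 1 point per ESC-like array, offset vertically to keep them apart, with dotted lines at 2-fold. Slc13a5 and Crygd stand below −1 in all arrays, which no relative of theirs does (Crygc is below −1 in homologous cells alone), and Cryab passes 2-fold in the heterologous array alone, at 2.40.

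Genes tied to the relatives of Prtg, to the early embryo and to kidney formation were counted in the same way. Of 12 genes of netrin and RGM ligands and UNC5 receptors, Unc5b was the 1 past 2-fold, with 0.68, 1.62 and 0.41, followed by Rgmb with 0.28, 0.91 and 0.19. The netrin genes Ntn1 and Ntn3 were lowest, Ntn1 with −0.92, −0.02 and −0.45 and Ntn3 with −0.22, −0.22 and −0.26. Of 13 genes of the primitive streak and early mesoderm, 0 passed 2-fold in any comparison; the Notch ligand genes Dll3 (0.71, 0.79 and 0.74) and Dll1 (0.30, 0.33 and 0.12) were highest, and Eomes (−0.54, −0.57 and −0.57) and Cdx1 (−0.46, −0.16 and 0.06) lowest. Of 15 kidney development genes, 0 passed 2-fold in the homologous array, 4 passed it upward in heterologous cells and 1, Eya1, after co-injection. Eya1, a transcriptional coactivator gene of the early kidney, had 0.93 (homologous), 1.14 (heterologous), 1.14 (batch 1) and 1.31 (batch 2), and Gfra1, a receptor gene for GDNF, had 0.84, 1.32 and 0.76. The others past 2-fold in the heterologous array, named after their values were seen, were Osr1 (2.33) and Itga8 (1.06). Osr1 was at −0.84 in the co-injection mean. The heterologous array was also the one with high fibroblast markers, and the part of fibroblasts in these values was not tested. Pax2 (−0.39, −0.24 and −0.17) and Sall1 (−0.0033, −0.62 and −0.12) were lowest. The kidney list median was −0.04, 0.12 and 0.02.

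The 5 nearest genes with a probe set on each side of each of the 5 were examined to see whether whole stretches of chromosome moved. Around Greb1l, the neighbours Thoc1, Usp14, Rock1, Esco1, Snrpd1 and Abhd3 lay between −0.34 and 0.49, and 0 of 10 passed 2-fold in any array. Around Prtg, Tex9, Rfx7, Nedd4, Pygo1, Dnaaf4 and Ccpg1 lay between −0.58 and 0.11, 0 of 10 passed 2-fold upward, and Rab27a, named after its value was seen, was 2-fold lower in heterologous cells (−1.0021). Beside Fam171b, the integrin gene Itgav was 1.34 higher in the heterologous array and 0.35, −0.08 and 0.12 in homologous cells, batch 1 and batch 2, and Tfpi, a coagulation inhibitor gene, was lower, from −0.70 in the homologous to −1.42 in co-injection batch 1. The other near neighbours of Fam171b, Fsip2, Zc3h15, Zswim2 and Calcrl, had differences between −0.27 and 0.88.

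Near Crygd, apart from Crygc, Crygb and Cryga on one side, Akr1cl, Plekhm3 and Fzd5 on the other side lay between −0.53 and 0.01. The neighbourhood of Slc13a5 was the only one of the 5 with a second gene more than 2-fold from parental ESCs in all 4 arrays in the same direction. That gene was Xaf1, an interferon-inducible gene, which had 8.33 in parental ESCs and 6.35 (homologous), 6.61 (heterologous), 6.53 (batch 1) and 6.49 (batch 2; differences of −1.98, −1.72, −1.80 and −1.84). All 4 ESC-like arrays were thus low for Xaf1, with smaller differences than for Slc13a5. Smtnl2, also named after its value was seen, was past 2-fold in heterologous cells alone (−1.28). Fbxo39 and Tekt1, next after Xaf1, and 4930563E22Rik, Med31 and Txndc17, before Slc13a5, lay between −0.46 and 0.22. The median over all brighter genes of each of the 5 chromosomes stayed between −0.04 and 0.09 in every ESC-like array. By chromosome counts, the study reports more aneuploidy in its ESC-like cells than in parental ESCs. These medians do not show whether chromosome number was normal.

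**Figure D4:**
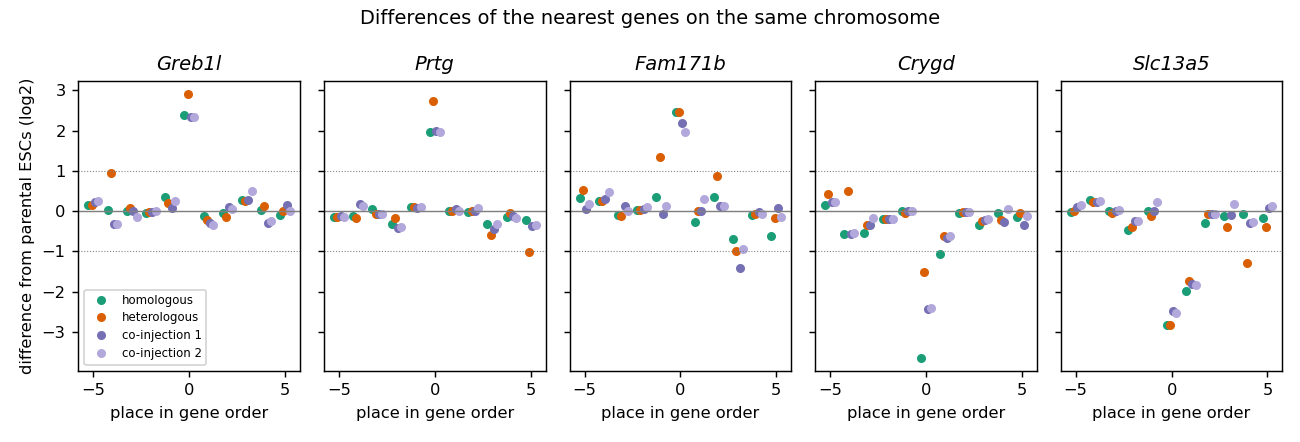
Difference from parental ESCs (log2, vertical axis) of the 5 nearest measured genes on each side (horizontal axis, place in gene order, the named gene at 0), 1 point per ESC-like array, offset sideways to keep them apart, with dotted lines at 2-fold. No neighbour of Greb1l passes 2-fold, while each other panel holds at least 1 neighbour past it in some array. Xaf1 at place 1 beside Slc13a5, between −1.98 and −1.72, is the only neighbour past 2-fold in every ESC-like array.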

How the data were processed

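RNA of the 5 populations was read on Affymetrix Mouse Gene 1.0 ST arrays, 1 array each. Log2 expression values of 35556 probe sets were deposited by the authors, who had run GCOS, then RMA and quantile normalization; the sources used here give neither their versions nor the genome build. Array medians were 7.48 to 7.54. The values were used with no further normalization. The platform annotation gave exactly 1 symbol to 21789 probe sets (several to 1621, none to 12146), which stand for 19938 genes; symbols and chromosomes were updated through gene IDs to RefSeq, GRCm38.p6, which gave no chromosome for 22 genes. Promoter sequences are from RefSeq, same build.

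Each difference subtracts 1 log2 value from another, the co-injection arrays singly or as their mean. The 2-fold rule follows the methods of the study. With 1 array in 3 of the 4 conditions, the main values carry no test, and precision is limited by how few arrays there are. A limma fit (version 3.58.1) over all probe sets was an alternative for differences among ESC-like arrays, with Benjamini-Hochberg adjustment; it has 1 residual degree of freedom and assumes that lone arrays vary like the co-injection pair. Other alternatives were fold thresholds of 1.5 and 3, leaving out dim genes (mean at or below the median of all values), counting every probe set, leaving out each array, cyclic loess, a common median and the mean over the probe sets of a gene. Scripts were tested on simulated data. The genes and the gene lists were chosen with earlier results of these data known. Named genes were the 5 genes, their families, the 3 most alike genes and the 3 nearest neighbours on each side. To these were added the 10 genes per direction with the largest smallest difference. Of each other list, the 2 highest and 2 lowest by the mean of the 4 differences were named, and exceptions are stated. The cell type marker lists did not follow this rule, and only some of their genes are named. Python 3.11.15, pandas 2.3.3, numpy 2.4.6, matplotlib 3.10.9 and R 4.3.3 were used.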

Additional observations from a re-analysis of the deposited data

How the results depend on the processing

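Under cyclic loess, a common median, leaving out a co-injection array and the mean over probe sets, each difference of the 5 genes kept its side of 2-fold. At 1.5-fold, 284 autosomal genes were higher and 377 lower in all 4 ESC-like arrays, with all 5 genes among them; at 3-fold 7 were higher, with all 3 of the higher genes, and 33 lower, with Slc13a5 but not Crygd. Without dim genes, a filter that leaves out Slc13a5, the numbers were 58 and 97. With 1 co-injection array left out they were 71 to 76 and 140 to 148, without the homologous array 68 and 144, and without the heterologous array 88 and 165. The mean of both Greb1l probe sets gave differences of 2.08 (homologous), 2.61 (heterologous) and 2.05 (co-injection). For Fam171b, leaving out 1 co-injection array gave a co-injection difference of 1.96 to 2.19, and 0.27 to 0.51 (heterologous) and 0.26 to 0.50 (homologous) over the remaining array. Cyclic loess brought Slc13a5 to −0.22 between the heterologous array and the co-injection mean. In limma, 0 of 35556 probe sets had an adjusted p under 0.05 in any contrast of ESC-like arrays, while 7335 (heterologous against homologous), 9476 (heterologous against co-injection) and 5339 (homologous against co-injection) had an unadjusted p under 0.05, among them 3, 4 and 2 of the 5 genes; the lowest adjusted p among the 5 genes was 0.194, 0.146 and 0.327. A lack of calls with 1 residual degree of freedom does not show that values were alike. No paired analysis was possible because only the co-injection condition has more than 1 array. Not run were a block for the slide and other ways of correcting background, which need scanner files not used here.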
